A study of Homo sapiens with 72 samples.

Results

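The response of H3K4me3 to bryostatin was measured in Raji, an EBV-positive Burkitt lymphoma line used here as the mature member of a set of B cell lines. The comparison holds 6 Cut&Tag libraries of the 54 libraries of the series with a peak file, namely 3 of Raji cells cultured with 1 nM bryostatin overnight and 3 of Raji cells with no treatment. All libraries came from the same cell line grown in RPMI, and the labels give no other agent or genetic change for either group. The libraries were selected by cell line, mark and treatment in the sample labels. Peaks that touched by 1 bp or more in the 6 libraries were merged into 11905 regions, of which 9040 were called in all 6 libraries and were tested.

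Histone H3 trimethylated on lysine 4 marks the first nucleosomes downstream and upstream of active transcription starts, and its domains are broader and stronger at genes that are transcribed steadily. In Cut&Tag an antibody to the mark directs a transposase that cuts and tags the DNA beside it. Bryostatin is a macrocyclic lactone that binds the diacylglycerol site of protein kinase C. In B cells that site is normally filled after the antigen receptor is engaged, and protein kinase C and the RASGRP exchange factors then pass the signal to ERK, to AP-1 and to NF-kB. Early response genes such as FOS and EGR1 are switched on within this cascade, and phosphatases such as DUSP5 switch ERK off again.

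The number of mapped reads, recovered from the step between coverage values, was 47.87 M, 20.11 M and 21.03 M in untreated replicates 1 to 3 and 17.02 M, 27.28 M and 13.47 M in bryostatin replicates 1 to 3. Untreated replicate 1 stood apart, with the most reads, the most peaks (12798 against 9158 to 11026) and the shortest median peak (1690 bp against 2300 to 2780 bp). Levels below are relative to their own library, while called lengths in bp and signal per base in RPKM are not. A level is the total signal of a region, that is the coverage in RPKM summed over its called bases, divided by the median region of the same library. A region with a level of 1 is the median region, and since the level grows with region length it is compared between libraries and not between genes. Total signal over all peaks was 1.15 times as high in the bryostatin libraries and was lowest in untreated replicate 1. The ratio was not larger than the spread between libraries (exact two-sided permutation test, p = 0.6, where 3 against 3 cannot give less than 0.1). All 10 mature B cell markers carried the mark in Raji, with summed levels of 24.9 to 27 untreated and 27.1 to 29.2 treated. None of 10 T or NK cell markers and none of 7 myeloid markers had a peak in any library, and of 6 precursor B cell markers RAG1 had one, at 0.559 to 0.648 untreated and 0.659 to 0.717 treated.

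Bryostatin changed H3K4me3 at 132 of 9040 regions (1.46%), 96 higher (1.06%) and 36 lower (0.398%), by limma with the replicate number as a block and a Benjamini-Hochberg adjusted p under 0.05. Among the regions that rose were those of LRIG1, PLEK, SGK1 and HIVEP3, early response transcription factors (EGR2, FOS, EGR1, MAFF) and the ERK phosphatase gene DUSP5. Others among the 96 held the integrin gene ITGB2, the antigen receptor inhibitors PTPN6 and CD22, cytokine receptor genes and HLA-E. Those that fell carried PLD4, AFF3, LIME1, DEF8, ITGB7, IKZF1 and NECTIN1 among others. At all 132 the change had the same sign in the 3 same-numbered pairs, and the treated and untreated libraries did not overlap at 100 of them, against 12.4% of all tested regions. Both counts rest on the values that chose the regions and are given as a description. Relative to the median region, which was set to 0 in each library, 95% of all regions had log2 changes between -0.37 and 0.38. Without that centring the median log2 change was 0.25, and 41 regions passed as higher and 1 as lower. The total signal of the median region was 652889 in untreated replicate 1 and 1106360 to 1189510 in the other libraries. SLFN5 (0.50, adjusted p = 0.0498) and SYBU (-0.60, adjusted p = 0.0499) were the last regions inside the threshold, and MYADM (0.44) and PTPN7 (0.63), both at an adjusted p of 0.0507, the first outside it.

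**Figure D1:**
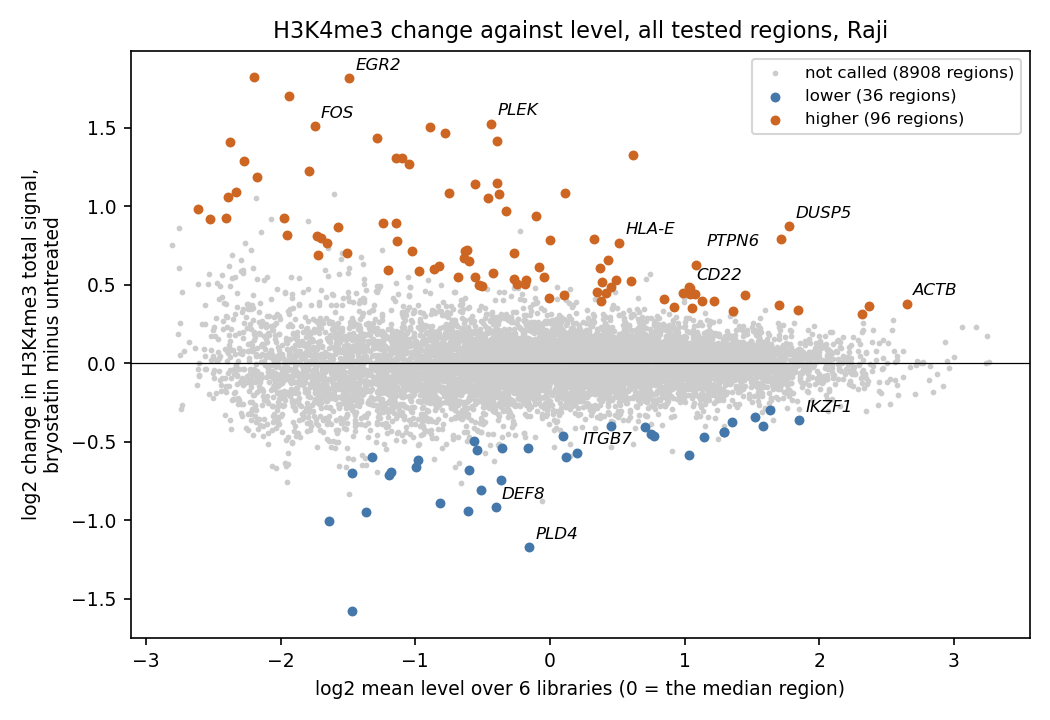
The log2 change in H3K4me3 total signal (bryostatin minus untreated, vertical axis) is plotted against the log2 mean level over 6 libraries (0 is the median region) for 9040 regions of Raji, with 96 higher regions in orange, 36 lower regions in blue and 8908 regions not called in grey. The rises above 1 lie mostly below the median level, while DUSP5 and PTPN6 changed at levels above it.

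The number of changed regions depended on the pairing and on which libraries were included. Without the replicate block 14 regions passed, all higher and all among the 132, namely EGR2, FOS, SGK1, HIVEP3, PHLDA1, CLEC17A, PPP1R15A, CD69, UBASH3B, LPIN1, DUSP5, PTPN6, HLA-E and the lncRNA ENSG00000290099. The count was 685 (403 higher, 282 lower) without untreated replicate 1 and 299 (135 higher, 164 lower) without untreated replicate 2. It was 687 (389 higher, 298 lower) without bryostatin replicate 1 and 302 (131 higher, 171 lower) without bryostatin replicate 2. With the maximum signal of a region in place of its total, limma called 0 regions, with 520 at an unadjusted p under 0.05. With the block the p-values measure the spread of the differences between same-numbered libraries, and without it the spread between libraries. The labels do not say that the replicates were separate cultures, so either spread may be technical.

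The regions that rose were weakly marked in untreated cells. Their median signal per called base was 189 RPKM untreated, against 391 RPKM over all tested regions, and 66 of the 96 lay below the median untreated level. The median level went from 0.54 to 0.99, with a median log2 change of 0.70, and 88 of the 96 contained the start of a protein-coding gene. The regions that fell had a median of 292 RPKM per called base untreated, and their median level went from 1.02 to 0.62, with a median log2 change of -0.58. Total signal chose these regions, so these figures describe them and test nothing further.

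The rise was in part a gain of length. The called length at higher regions had a median of 3100 bp untreated and 3930 bp treated, and it was longer in the treated libraries at 89 of 96 (92.7%), against 71.8% of all tested regions. Without replicate 1 in both groups, a setting added after the data had been seen, the medians were 3440 bp and 4010 bp and 83 of 96 (86.5%) were longer, against 47.2% of all tested regions. Downstream of the start, into the gene, the median gain was 433 bp, against 90.0 bp over all tested regions, while upstream it was 137 bp against 26.7 bp. SGK1, the gene of a serum- and glucocorticoid-regulated kinase, had the largest gain, from 1870 bp to 5443 bp of called length, with 3497 bp gained downstream. EGR2 went from 1793 bp to 4540 bp, with 2557 bp gained downstream. At lower regions the median length went from 3747 bp to 3448 bp, with 157 bp lost downstream and 90.0 bp lost upstream. Length is part of total signal and therefore of the choice of regions. The maximum signal, which has no length in it but contributes to the total, had a median log2 change of 0.52 at the higher regions and -0.55 at the lower ones, also as a description.

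**Figure D2:**
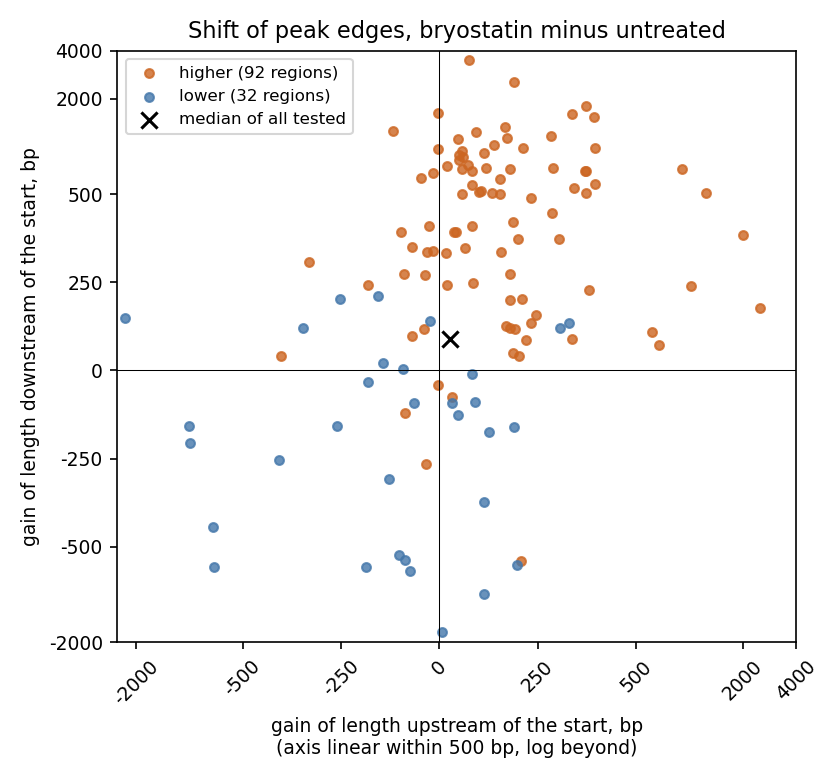
Each point is a changed region with a transcription start, placed by the gain of called length upstream (horizontal axis, bp) and downstream (vertical axis, bp) of that start in bryostatin over untreated libraries, on axes that are linear within 500 bp and logarithmic beyond. Of 92 higher regions (orange), 87 gained length downstream, of 32 lower regions (blue) 23 lost length there, and the cross marks the median of all tested regions.

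EGR2, a zinc finger transcription factor of the early response, showed the largest rise at a protein-coding start. Its region (hg38 chr10:62813461-62818380) had levels of 0.157, 0.173 and 0.133 in untreated replicates 1 to 3 and of 0.375, 0.631 and 0.669 in bryostatin replicates 1 to 3. Every treated library was above every untreated one, and the log2 change was 1.82 (SE 0.19, adjusted p = 0.00111, a 3.52-fold rise). FOS, the AP-1 subunit that pairs with JUN proteins, had levels of 0.119, 0.161 and 0.190 untreated and 0.410, 0.453 and 0.456 treated at chr14:75277331-75280910, so that the groups did not overlap. Its log2 change was 1.51 (SE 0.16, adjusted p = 0.0011), and its called length grew from 1990 bp to 2770 bp.

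EGR1 and MAFF behaved differently from each other in shape. At EGR1, another zinc finger factor of the early response, the untreated levels were 0.626, 0.706 and 0.848 and the treated ones 0.884, 1.42 and 1.52 (log2 change 0.78, SE 0.11, adjusted p = 0.00593). The groups were separate, but by a narrow margin in replicate 3 untreated against replicate 1 treated. The region was 1317 bp longer downstream of the start in treated cells, while its maximum signal did not rise (log2 change -0.03). MAFF, a small MAF protein that binds DNA as a partner of other leucine zipper factors, had 0.303, 0.544 and 0.672 untreated and 0.756, 1.19 and 1.17 treated. Its log2 change was 1.08 (SE 0.12, adjusted p = 0.00114) with a length of 2207 bp untreated and 2163 bp treated and a maximum signal change of 0.97, so the gain at MAFF was in height.

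Of 16 AP-1 genes listed, 11 were tested, and FOS and MAFF were the 2 that passed, with a list median of 0.06 against -0.01 over 9940 protein-coding genes with a tested region, of which 0.855% passed as higher and 0.322% as lower. JUN, the main partner of FOS, had a change of -0.14 (adjusted p = 0.52), JUNB -0.01 and FOSB -0.09. Of 15 early response genes, 10 were tested, and EGR1 and EGR2 passed. All 10 had a change above 0, with a median of 0.10 (0.0002 with maximum signal), against 48.6% above 0 over all protein-coding genes. Ribosomal protein genes, listed for comparison, had a median of 0.16, with 61 of 75 above 0. IER2, with levels of 5.88 to 7.67 untreated and 6.31 to 7.18 treated, and KLF10, with 5.64 to 6.14 and 5.82 to 6.13, had changes of 0.00 and 0.02. At both genes the treated and untreated levels overlapped.

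Promoter sequence is shown for a few changed genes with a match to a searched element, picked after their matches were seen and not all that had one. The serum response element core (CArG box), the cyclic AMP response element (CRE, TGACGTCA), the AP-1 site (TGAGTCA), the NF-kB site, the EGR site (GCGTGGGCG) and the TATAAA box were searched on both strands of RefSeq promoters (GRCh38.p14, 250 bases before to 50 after the start). The AP-1 letters were also counted as TGACTCA, their other strand, each element was counted by itself, and a stretch could count for more than 1. Capitals mark the matches to the element each promoter is shown for. The EGR1 promoter (chr5:138465229-138465528, plus strand) held 2 CArG boxes, whose first bases lie 105 and 83 bases before the start, that of FOS (chr14:75278578-75278877, plus strand) a TATAAA box 33 bases before it, and those of MAFF (chr22:38201744-38202043, plus strand) and PPP1R15A (chr19:48872171-48872470, plus strand) a CRE 54 and 58 bases before it. PPP1R15A also held a TATAAA box 30 bases before its start, left in lower case.
EGR1: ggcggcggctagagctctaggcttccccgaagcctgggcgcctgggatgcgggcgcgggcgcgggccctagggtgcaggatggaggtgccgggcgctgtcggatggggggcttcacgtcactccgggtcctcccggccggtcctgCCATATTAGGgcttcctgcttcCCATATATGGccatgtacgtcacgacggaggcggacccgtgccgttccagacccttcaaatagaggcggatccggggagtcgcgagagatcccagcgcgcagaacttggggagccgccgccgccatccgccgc
FOS: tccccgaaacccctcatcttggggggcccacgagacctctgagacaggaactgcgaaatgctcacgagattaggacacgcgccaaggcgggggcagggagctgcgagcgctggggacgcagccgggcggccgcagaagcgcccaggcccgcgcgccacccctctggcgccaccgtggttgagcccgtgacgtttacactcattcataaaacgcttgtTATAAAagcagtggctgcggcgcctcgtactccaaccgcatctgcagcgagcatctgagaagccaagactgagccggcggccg
MAFF: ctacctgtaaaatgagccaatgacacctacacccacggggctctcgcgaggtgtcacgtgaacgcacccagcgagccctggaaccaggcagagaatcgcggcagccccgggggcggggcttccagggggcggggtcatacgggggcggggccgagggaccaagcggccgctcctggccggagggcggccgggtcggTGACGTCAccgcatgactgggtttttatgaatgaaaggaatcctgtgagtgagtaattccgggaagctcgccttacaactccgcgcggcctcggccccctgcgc
PPP1R15A: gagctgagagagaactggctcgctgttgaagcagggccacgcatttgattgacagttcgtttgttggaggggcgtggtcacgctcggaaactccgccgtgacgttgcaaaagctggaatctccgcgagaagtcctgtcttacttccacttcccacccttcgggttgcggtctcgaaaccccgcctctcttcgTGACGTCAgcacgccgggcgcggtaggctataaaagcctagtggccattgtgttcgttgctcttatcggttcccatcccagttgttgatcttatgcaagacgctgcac

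Among higher regions 44 genes had their RefSeq promoter inside the region, among lower ones 18, and among all tested 6304. A CArG box was in 2 higher promoters, EGR1 and ISG15 (4.55%), in 0 lower ones and in 0.936% of all. A CRE was in 2 higher (4.55%) and 2 lower promoters (11.1%) and in 3.93% of all, and an NF-kB site in 9 higher (20.5%), 0 lower and 13.2% of all. TATAAA was in 4 higher (9.09%), 0 lower and 4.57% of all promoters. The AP-1 and EGR letters were in none of the higher or lower promoters and in 2.25% and 1.46% of all. These are counts of letters in a window of 300 bases and no test was made of them. The CArG and TATAAA letters were added after the data had been seen.

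Among the ERK feedback genes DUSP5 and DUSP10 rose. DUSP5, a nuclear phosphatase that inactivates ERK, had one of the smallest p-values of all regions. Its levels were 2.83, 2.28 and 2.16 untreated and 4.72, 4.28 and 4.23 treated at chr10:110494661-110502610. No treated library came near an untreated one, and the log2 change was 0.87 (SE 0.068, adjusted p = 0.000262). DUSP10, which acts mainly on p38 and JNK, rose by less, with 1.51, 1.79 and 1.34 untreated and 2.24, 2.12 and 1.79 treated (log2 change 0.41, adjusted p = 0.0387), and its highest untreated and lowest treated libraries nearly met. Of 14 genes of this list 7 were tested, 2 rose, and all 7 had a change above 0 with a median of 0.23 (0.16 with maximum signal). Over all protein-coding genes with a tested region 0.855% passed as higher and 48.6% had a change above 0. SPRED2 (0.33, adjusted p = 0.11) and DUSP2 (0.23, adjusted p = 0.20) did not pass. No gene of the kinases themselves passed. PKC and PKD genes had 0 of 8 tested, with PRKD2 at 0.29 (adjusted p = 0.071) and PRKCB at 0.12, and the RASGRP and diacylglycerol kinase genes 0 of 9, with RASGRP2 at -0.33 (adjusted p = 0.067) and DGKD at 0.48 (adjusted p = 0.077).

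**Figure D3:**
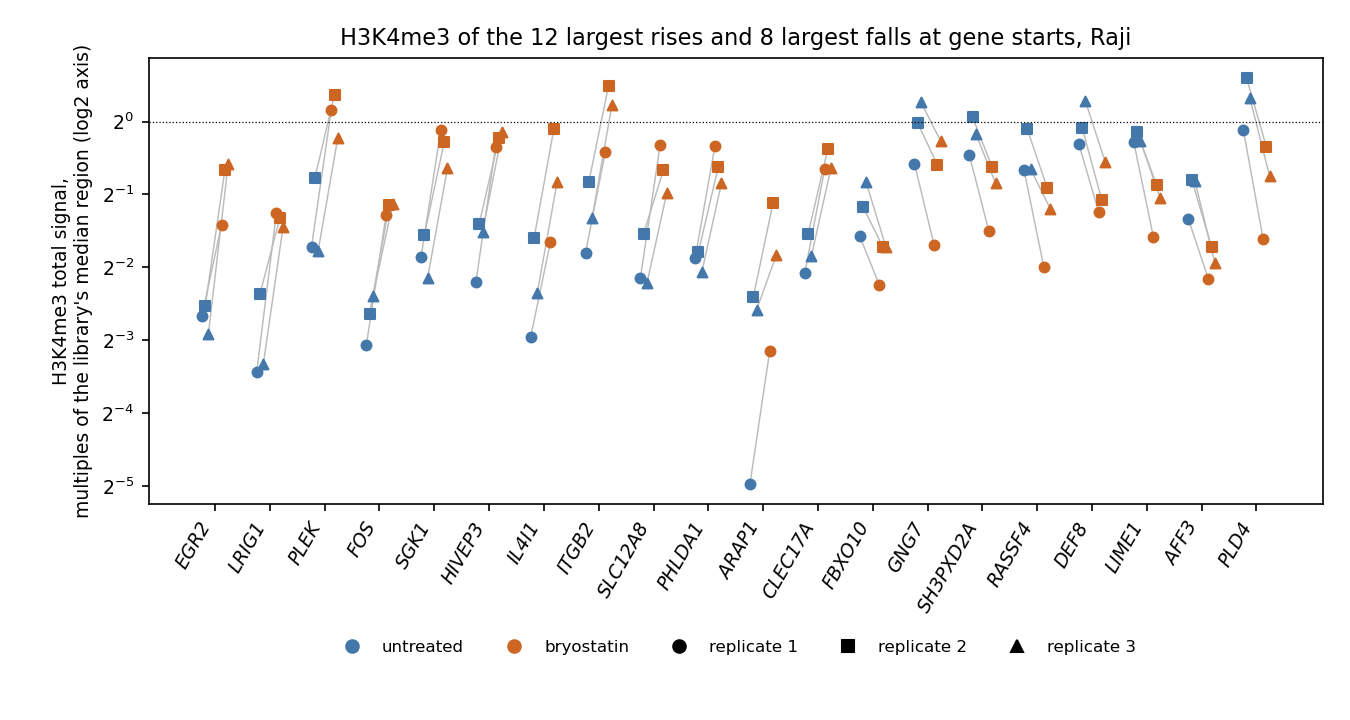
The H3K4me3 level of each library (total signal in multiples of the library's median region, log2 axis) is plotted for the 12 largest rises and the 8 largest falls at protein-coding starts in Raji, untreated in blue and bryostatin in orange, with a symbol for each replicate number and a line joining each same-numbered pair. Every line slopes upward in the first 12 genes and downward in the last 8, and the groups overlap at IL4I1, ARAP1 and GNG7.

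LRIG1, SGK1, HIVEP3 and PLEK were also among the 12 largest rises. At each the changed region lay downstream of the RefSeq start of the gene, and its values are not those of that start. LRIG1, which restrains receptor tyrosine kinases, had levels of 0.0924, 0.194 and 0.0996 untreated and 0.420, 0.398 and 0.366 treated (log2 change 1.70, SE 0.22, adjusted p = 0.00387). SGK1 went from 0.277, 0.341 and 0.227 to 0.926, 0.820 and 0.642 (1.50, SE 0.13, adjusted p = 0.000392), and its mean signal per called base changed by 0.057. HIVEP3, a zinc finger protein that binds kappaB-like sequences, went from 0.218, 0.379 and 0.350 to 0.788, 0.855 and 0.903 (1.46, SE 0.14, adjusted p = 0.000685). In each of these 3 genes the lowest treated library was above the highest untreated one. PLEK encodes pleckstrin, a leukocyte protein known as a substrate of protein kinase C. A region inside PLEK (chr2:68387221-68392990) had 0.304, 0.583 and 0.291 untreated and 1.11, 1.29 and 0.857 treated (1.52, SE 0.14, adjusted p = 0.000485), again without overlap. The stronger region at its main start had a change of 0.31 that did not pass (adjusted p = 0.12).

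ITGB2 encodes the beta chain of LFA-1, the integrin that binds ICAM proteins. It had 2 changed regions. The weaker one (chr21:44926171-44934840) held 0.287, 0.564 and 0.401 untreated and 0.750, 1.41 and 1.16 treated, with all treated libraries higher (log2 change 1.41, SE 0.10, adjusted p = 0.000262). The stronger one (chr21:44917521-44925220) held 2.51, 2.32 and 2.14 untreated and 2.90, 3.53 and 2.98 treated, again without overlap (0.43, SE 0.082, adjusted p = 0.0322). ITGB7, whose product pairs with alpha 4 and alpha E chains in gut homing, moved the other way, from 1.31, 1.54 and 1.26 to 0.805, 1.05 and 0.916 (-0.57, SE 0.088, adjusted p = 0.0109), and its groups did not overlap. Of 17 adhesion genes 10 were tested, and ITGB2 and ITGB7 were the 2 that passed. The shares over all protein-coding genes with a tested region were 0.855% higher and 0.322% lower. ICAM1, a ligand of LFA-1, had 1.47, 1.89 and 1.64 untreated and 1.90, 1.99 and 1.59 treated (0.13, adjusted p = 0.52), and ICAM2 had 0.529, 0.520 and 0.533 against 0.501, 0.662 and 0.550 (0.11, adjusted p = 0.72). Both overlapped between groups, and the sign at ICAM2 turned under other settings, for example to -0.14 with mean signal.

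IL4I1, SLC12A8, PHLDA1, ARAP1 and CLEC17A completed the 12 largest rises. The changed regions of IL4I1 and SLC12A8 lay 31204 bp and 100109 bp downstream of the RefSeq start. IL4I1, a secreted amino acid oxidase of activated B cells, had 0.129, 0.329 and 0.197 untreated and 0.319, 0.928 and 0.562 treated (1.44, SE 0.13, adjusted p = 0.000664). Its groups overlapped, because replicate 2 was high and replicate 1 low in both groups, and each pair rose. ARAP1, a GTPase-activating protein for ARF proteins, had the same pattern, with 0.0320, 0.188 and 0.167 untreated and 0.113, 0.461 and 0.281 treated (1.29, SE 0.23, adjusted p = 0.0218). CLEC17A, a C-type lectin of B cells, had 0.237, 0.343 and 0.278 untreated and 0.634, 0.772 and 0.646 treated (1.27, SE 0.12, adjusted p = 0.000685), with no overlap. SLC12A8, a solute carrier, changed by 1.31 and PHLDA1, a pleckstrin homology-like protein of the immediate early kind, also by 1.31, both without overlap.

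Of the genes of the B cell receptor pathway PTPN6 and CD22 rose. PTPN6 encodes SHP-1, the phosphatase recruited by inhibitory receptors, and its region (chr12:6950191-6964280) had 2.06, 2.63 and 2.56 untreated and 3.78, 4.67 and 4.06 treated. All treated libraries were higher, the log2 change was 0.79 (SE 0.068, adjusted p = 0.000392). Its called length was 4660, 5470 and 8320 bp untreated and 6270, 14030 and 5300 bp treated, so that length rose in replicates 1 and 2 and not in replicate 3. CD22, an inhibitory lectin that recruits SHP-1 and the antigen the study targets, had 1.48, 1.98 and 1.69 untreated and 2.36, 2.65 and 2.16 treated at chr19:35327421-35335900 (0.48, SE 0.081, adjusted p = 0.0169). The groups at CD22 did not overlap, the maximum signal changed by 0.19 and the downstream gain was 1257 bp, and without the replicate block the adjusted p was 0.476.

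In all, 2 of 26 tested genes of this pathway rose and none fell, with a median of 0.00. The shares over all protein-coding genes were 0.855% higher and 0.322% lower. BLNK (-0.44, adjusted p = 0.10), CD38 (-0.33) and CD72 (-0.29) had negative changes that did not pass, and CD79A and CD79B, the signalling chains of the receptor, both had 0.02. Of 24 B lineage factors 23 were tested. IKZF1, the zinc finger factor Ikaros, was the 1 that passed, against 0.322% lower over all protein-coding genes. It fell from 4.94, 3.82 and 3.45 to 3.50, 3.26 and 2.69 (-0.36, SE 0.069, adjusted p = 0.0333). The groups overlapped at IKZF1, since untreated replicate 3 was below bryostatin replicate 1. PAX5, with levels of 9.11 to 9.69 untreated and 9.20 to 9.69 treated, had a change of 0.00.

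**Figure D4:**
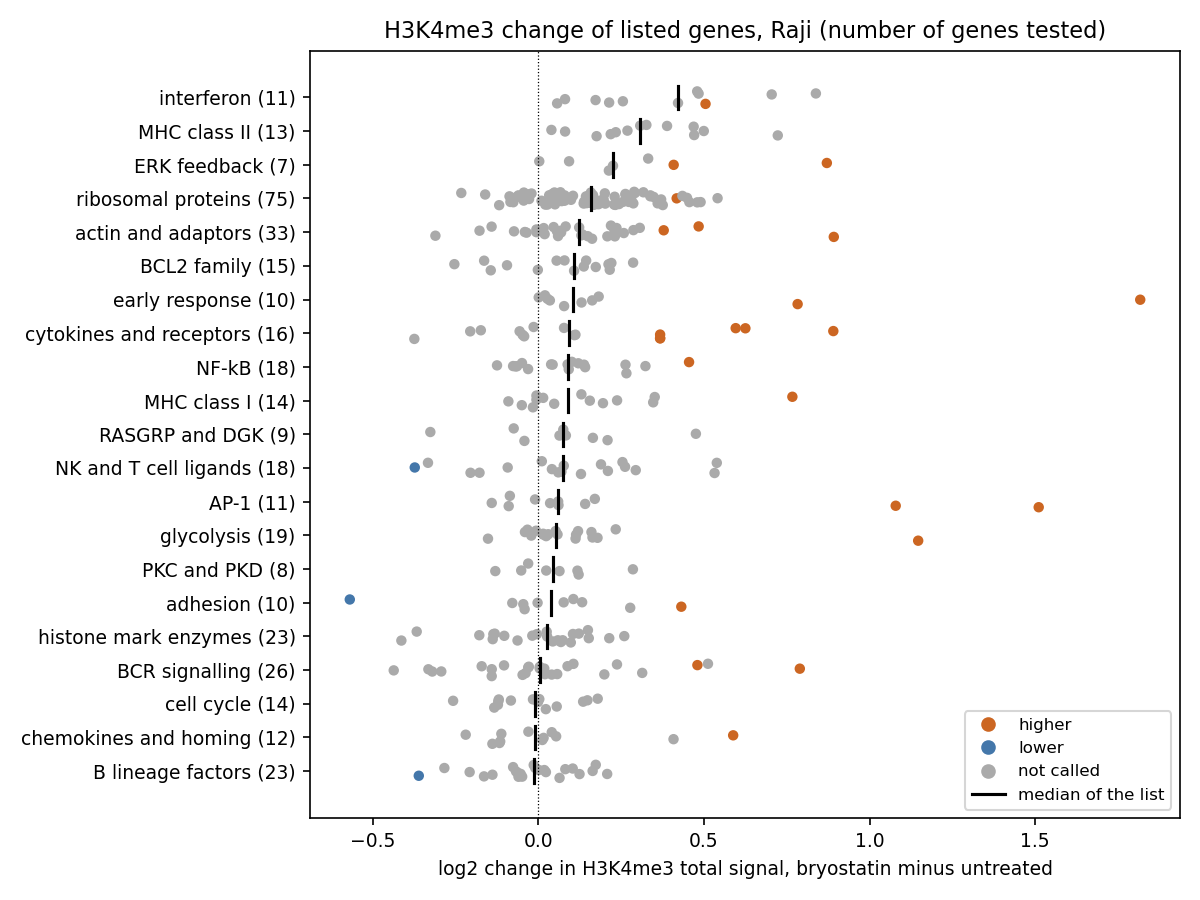
Each point is the log2 change in H3K4me3 total signal (bryostatin minus untreated) of a listed gene at its strongest tested region in Raji, with genes called higher in orange, genes called lower in blue, genes not called in grey and the median of each list as a bar, and the number of genes tested in brackets. The interferon list has the highest median (0.42) and the B lineage list the lowest (-0.01), and the largest single changes are EGR2 and FOS.

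Of 26 genes for cytokines and their receptors 16 were tested at 14 distinct regions. Of these 16 genes 6 rose, at 4 distinct regions, against 0.855% higher over all protein-coding genes, while the list median was 0.09. IL21R, the receptor chain for a helper T cell cytokine that drives B cell differentiation, had 1.69, 1.81 and 1.50 untreated and 2.56, 2.78 and 2.37 treated (0.63, SE 0.069, adjusted p = 0.00115). TNFRSF1B, the second TNF receptor, had 0.254, 0.435 and 0.269 untreated and 0.475, 0.758 and 0.526 treated (0.89, SE 0.12, adjusted p = 0.00556). Neither gene's groups overlapped. LTA, LTB and TNF, neighbouring genes for lymphotoxins and TNF, lie in 1 region (chr6:31569511-31583530) and count 3 times in the list. That region had 4.11, 4.76 and 4.67 untreated and 5.29, 6.41 and 5.79 treated (0.37, SE 0.057, adjusted p = 0.0114), without overlap, and its maximum signal changed by -0.03.

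IL2RG, the common gamma chain that IL21R signals with, had 0.294, 0.402 and 0.344 untreated and 0.477, 0.629 and 0.468 treated (0.60, adjusted p = 0.0442). Its groups did not overlap either. IL10RA (-0.37, adjusted p = 0.12) and IL10 (-0.17) did not pass. The LTB promoter (chr6:31582376-31582675, minus strand) is shown because it held 2 matches to the NF-kB site, with first bases 86 bases before and 38 bases after the start.
LTB: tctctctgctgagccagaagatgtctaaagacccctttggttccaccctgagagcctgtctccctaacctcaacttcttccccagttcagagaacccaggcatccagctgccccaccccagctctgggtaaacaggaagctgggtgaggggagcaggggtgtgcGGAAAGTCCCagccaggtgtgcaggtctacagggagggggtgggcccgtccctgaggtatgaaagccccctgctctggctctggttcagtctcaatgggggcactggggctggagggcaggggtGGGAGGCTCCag

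Of 18 NF-kB genes, all tested, TRAF1 was the 1 that passed, with a list median of 0.09, against 0.855% higher over all protein-coding genes. TRAF1 is an adaptor of TNF receptors whose levels were 0.890, 1.44 and 0.868 untreated and 1.07, 2.05 and 1.30 treated (0.46, adjusted p = 0.0381). Its groups overlapped because untreated replicate 2 was above 2 treated libraries. NFKBIA, the inhibitor that NF-kB itself induces, had -0.06 and TNFAIP3, the A20 deubiquitinase, 0.27 (adjusted p = 0.12). Among 12 tested genes of chemokine signalling and homing, RGS3, a brake on G protein signalling, was the 1 that rose, against the same 0.855%. Its log2 change was 0.59 (adjusted p = 0.0381), with 0.234, 0.606 and 0.395 untreated and 0.380, 0.887 and 0.564 treated and overlapping groups. CXCR4 and CCR7, the main homing receptors of the list, had 0.04 and 0.01.

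Of 33 tested actin genes and adaptors 3 rose, against 0.855% of all protein-coding genes. EVL, a member of the Ena/VASP family that promotes filament growth, had 0.246, 0.356 and 0.283 untreated and 0.428, 0.708 and 0.522 treated (0.89, SE 0.12, adjusted p = 0.00593). ZYX, the focal adhesion protein zyxin, had 1.57, 1.78 and 1.76 untreated and 2.33, 2.40 and 2.40 treated (0.48, SE 0.071, adjusted p = 0.00848). ACTB, beta actin, had 4.66, 5.91 and 5.87 untreated and 6.70, 7.32 and 7.24 treated (0.38, SE 0.062, adjusted p = 0.0156). At these 3 genes no treated library was as low as an untreated one. The list median was 0.12, and 25 of 33 changes were above 0, against 48.6% over all protein-coding genes.

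Of the genes of antigen presentation HLA-E passed, the ligand of the NK cell receptor NKG2A, with 1.06, 1.06 and 1.04 untreated and 1.91, 1.76 and 1.73 treated at chr6:30488801-30493090. The 3 untreated libraries were nearly equal and all treated ones were higher, and the log2 change was 0.77 (SE 0.078, adjusted p = 0.000842). Of 14 tested genes of the class I pathway it was the 1 that passed, against 0.855% higher over all protein-coding genes. HLA-B had 0.35 (adjusted p = 0.081), HLA-C 0.16 and B2M 0.05. None of the 13 class II genes passed, while all 13 had a change above 0, with a median of 0.31 (0.20 with maximum signal). Over all protein-coding genes 48.6% had a change above 0. CD74, the invariant chain, had 1.52, 1.35 and 1.32 untreated and 2.11, 1.63 and 1.56 treated (0.33, adjusted p = 0.090). HLA genes are close copies of each other, so reads may be split between them.

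Among 18 tested ligands of NK and T cell receptors, a list without HLA-E, NECTIN1 was the 1 that passed. The share over all protein-coding genes was 0.322% lower. NECTIN1 is a cell adhesion protein and ligand of CD96. It fell from 2.87, 2.99 and 2.76 to 1.94, 2.42 and 2.33 (-0.37, SE 0.078, adjusted p = 0.0461), with no overlap. SLAMF1 (0.54, adjusted p = 0.13), MICA (-0.33) and MICB (0.01) did not pass. Interferon genes had the highest median of the lists by total signal, 0.42 over 11 tested, all with a change above 0. By mean signal their median was 0.13, below that of the class II genes (0.33). Over all protein-coding genes 48.6% had a change above 0 and 0.855% passed as higher. ISG15, a ubiquitin-like protein induced by interferon, was the 1 that passed, with 0.514, 0.767 and 0.785 untreated and 0.644, 1.10 and 1.24 treated (0.50, adjusted p = 0.0387) and overlapping groups. IRF9 (0.84, adjusted p = 0.051) and IFIT5 (0.70, adjusted p = 0.053) lay just outside.

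Growth and housekeeping genes are read against the same 0.855% higher and 0.322% lower over all protein-coding genes. Of 19 tested glycolysis genes SLC2A3, the glucose transporter GLUT3, rose, with 0.303, 0.580 and 0.569 untreated and 0.868, 1.18 and 1.06 treated (1.15, SE 0.13, adjusted p = 0.00127) and no overlap, and the enzymes GAPDH (-0.04), ENO1 (0.01) and LDHA (0.12) did not pass. No gene passed among 14 tested cell cycle genes, where MYC had 2.73, 2.64 and 2.74 untreated and 3.21, 3.06 and 2.92 treated (0.18, adjusted p = 0.24). None passed among 15 genes of the BCL2 family (MCL1 0.29, BCL2 0.21) or 23 enzymes that write or erase histone methylation (DPY30 -0.41, SETD1B 0.26). Ribosomal protein genes had a median of 0.16 over 75 tested, 61 of them above 0, against 48.6% over all protein-coding genes.

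Further changed genes were chosen after their values were seen. CD69, the early activation antigen, had 0.412, 0.552 and 0.454 untreated and 1.11, 0.946 and 0.878 treated (1.05, adjusted p = 0.00317). PPP1R15A, the stress-induced phosphatase subunit GADD34, had 0.536, 0.788 and 0.774 untreated and 1.38, 1.44 and 1.57 treated (1.09, SE 0.11, adjusted p = 0.000709). At both genes the treated libraries were all higher. The RNA-binding proteins ZFP36 (0.31) and ZFP36L1 (0.44), which destabilise AU-rich mRNAs, also rose, as did BTG2 (0.37), CSRNP1 (0.45), the microRNA 155 host gene MIR155HG (0.45), CD52 (0.70), CD180 (0.79), the transcription cofactor LMO2 (0.61) and the TGF-beta pathway genes SMAD3 (0.53) and SMAD7 (0.34).

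The largest fall at a protein-coding start was at PLD4, an endolysosomal nuclease of B cells and plasmacytoid dendritic cells. Its levels were 0.927, 1.51 and 1.25 untreated and 0.329, 0.785 and 0.595 treated at chr14:104922661-104928280, with all treated libraries lower (log2 change -1.17, SE 0.12, adjusted p = 0.000755). AFF3, a nuclear protein of lymphoid cells, fell from 0.395, 0.575 and 0.566 to 0.225, 0.304 and 0.261 (-0.95, SE 0.13, adjusted p = 0.00593). LIME1, a membrane adaptor that binds LCK and LYN, fell from 0.825, 0.904 and 0.834 to 0.333, 0.546 and 0.485 (-0.94, SE 0.13, adjusted p = 0.00593). At AFF3 and LIME1 too the groups did not overlap.

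DEF8 fell from 0.806, 0.943 and 1.21 to 0.425, 0.473 and 0.681 (-0.92, SE 0.10, adjusted p = 0.00114), again without overlap. RASSF4, a RAS-association protein, changed by -0.89, SH3PXD2A, the podosome scaffold TKS5, by -0.81, and FBXO10, a ubiquitin ligase subunit, by -0.70, all with separate groups. GNG7, a G protein gamma chain, fell from 0.671, 0.986 and 1.20 to 0.308, 0.660 and 0.829 (-0.75, SE 0.13, adjusted p = 0.0181). The groups overlapped at GNG7, because replicate 1 was the lowest in both, and each pair fell. Its promoter (chr19:2702645-2702944, minus strand) is shown as a promoter of a lower region that also held a CRE, 241 bases before the start.
GNG7: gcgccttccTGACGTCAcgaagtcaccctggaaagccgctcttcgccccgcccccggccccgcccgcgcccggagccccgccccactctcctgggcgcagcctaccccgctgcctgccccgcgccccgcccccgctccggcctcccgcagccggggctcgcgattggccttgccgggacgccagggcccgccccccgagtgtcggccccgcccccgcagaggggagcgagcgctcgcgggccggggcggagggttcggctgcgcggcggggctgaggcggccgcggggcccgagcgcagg
The lncRNA ENSG00000223989 had the largest fall of all regions, from 0.573, 0.531 and 0.498 to 0.115, 0.219 and 0.227 (-1.58, SE 0.21, adjusted p = 0.00515).

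Some changed regions did not hold the RefSeq start of their gene. RefSeq lists 1 start a gene, and for 69 leading genes of higher regions that start lay outside the changed region in 25 (36.2%), against 533 of 6837 (7.80%) over all tested regions and 5 of 23 (21.7%) for lower ones. In 23 of those 25 the changed region was downstream of the RefSeq start. The distance was under 1 kb at CSRNP1 (411 bp), MAML3 (784 bp) and EGR2 (787 bp). SGK1 was 142172 bp downstream, HIVEP3 372464 bp, SLC12A8 100109 bp, LRIG1 31181 bp, IL4I1 31204 bp and PLEK 21939 bp. IL21R and GM2A lay upstream. Among lower regions SH3PXD2A was 161436 bp downstream. In these genes the changed region was assigned by another start annotated in GENCODE 44. No test of this share was made.

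The changed regions with no start within 1 kb were 8, or 4.17% of higher and 11.1% of lower regions against 2.28% of all tested. The largest rise was in an intron of SGMS1 (chr10:50360131-50362660), from 0.0530, 0.148 and 0.136 to 0.280, 0.304 and 0.233 (1.41, SE 0.28, adjusted p = 0.0386), without overlap. Regions in an intron of CCDC200 (chr17:43244971-43247300, 0.77, adjusted p = 0.0386) and over an exon of CRYBG1 (chr6:106518341-106524730, 0.65, adjusted p = 0.0163) also rose, with overlapping groups. The largest distal fall was in an intron of TRANK1 (chr3:36922721-36925890), from 0.204, 0.530 and 0.530 to 0.0911, 0.348 and 0.225 (-1.0, SE 0.17, adjusted p = 0.0163), with overlapping groups. Others fell 23294 bp from the start of NECTIN1 (chr11:119751261-119754070, -0.71, adjusted p = 0.0204) and in an intron of KLF13 (chr15:31344151-31347820, -0.70, adjusted p = 0.0461). No region was called in all 3 treated and no untreated library, and 5 were called in all 3 untreated and no treated library. Of these 5, 1 lay at the start of SH3TC1, 1 at ADGRG5, and the other 3 were 22792 bp from PDIA4, 75222 bp from LYZL2 and 91734 bp from CSNK2A3. Their untreated levels were 0.0217 to 0.372, and they were not tested. These counts depended on the peaks called, since with the same number of peaks per library 24 regions were called in treated libraries only and 7 in untreated ones only. The 5 became 8 without untreated replicate 1, 31 without untreated replicate 3, 23 without bryostatin replicate 1, 17 without bryostatin replicate 2 and 41 without bryostatin replicate 3, counting either group.

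H3K4me2, the dimethyl form of the same mark, was measured in 6 other Raji libraries and read inside the same regions. Of 7544 regions measured, limma called 0 (518 at an unadjusted p under 0.05). The treated H3K4me2 libraries had 15.62 M, 18.79 M and 16.11 M reads and the untreated ones 8.31 M, 6.70 M and 13.86 M, and the part of depth in these values was not tested. At 87 higher regions the median log2 change of H3K4me2 was 0.08, with 53 (60.9%) above 0, and at 35 lower regions -0.12, with 8 above 0, against 48.0% above 0 over all regions. With whole H3K4me2 peaks the higher regions had a median of 0.18, with 65 of 87 above 0, and leaving out single libraries gave medians of 0.055 to 0.11 at higher and -0.18 to -0.066 at lower regions. Both settings were added after the data had been seen. The largest gains of H3K4me2 at the higher regions were at PLEK (0.95, SE 0.21), SLC12A8 (0.94, SE 0.27), the lncRNA ENSG00000275418 (0.93, SE 0.19) and HLA-E (0.81, SE 0.17), with adjusted p-values from 0.454 to 0.705. FOS had -0.19 and TFEB, whose H3K4me3 rose by 0.60, -0.52.

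**Figure D5:**
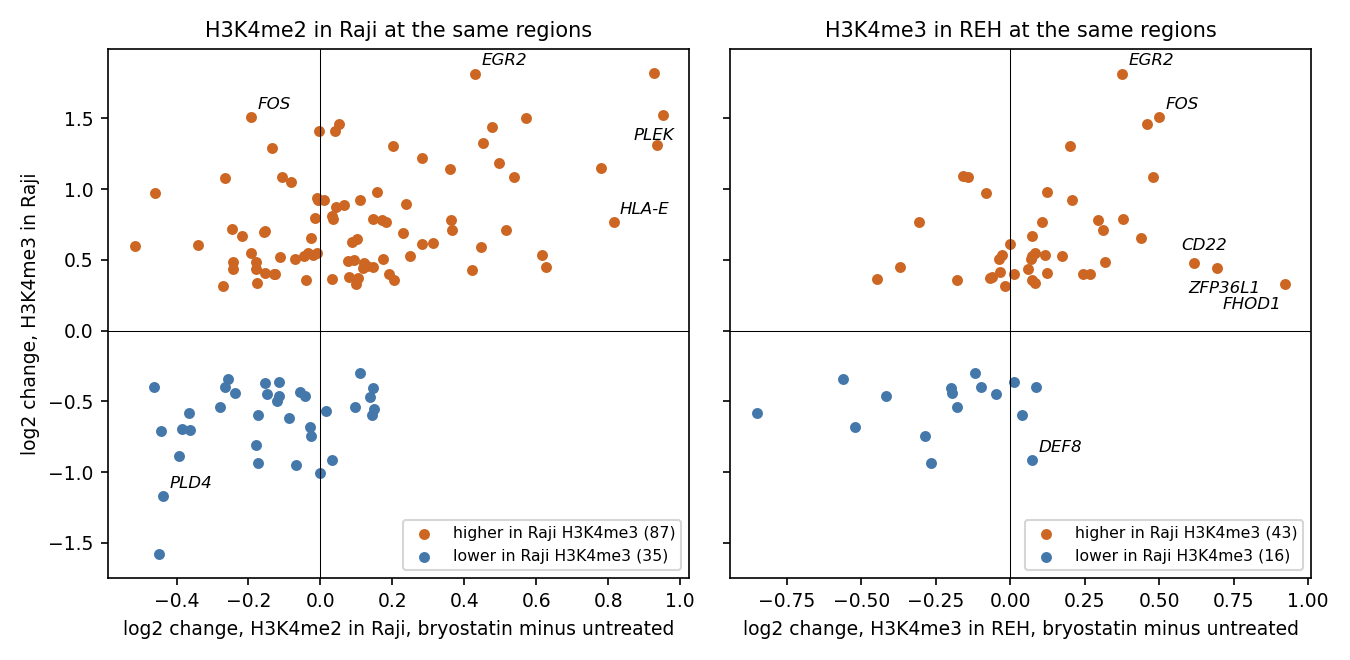
The log2 change of H3K4me3 in Raji (vertical axis) is plotted for changed regions, higher in orange and lower in blue, against the log2 change of H3K4me2 in Raji (left, 87 and 35 regions) and of H3K4me3 in REH (right, 43 and 16 regions), all bryostatin minus untreated. Points of both colours lie on both sides of 0 on each horizontal axis, with PLEK and HLA-E far to the right for H3K4me2 and FHOD1, ZFP36L1 and CD22 far to the right for REH.

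The same mark in REH, a pre-B acute lymphocytic leukaemia line given the same treatment, was read inside the same regions, of which 6452 were measured and 16 (0.248%) called. That count was 78 with whole peaks and 279, 14 and 44 without replicates 1, 2 and 3 of H3K4me3 in REH at the same regions, settings added after the data had been seen. At 43 higher regions of Raji the median change in REH was 0.08, with 29 above 0, and at 16 lower regions -0.19, with 4 above 0, against 48.9% above 0 over all regions. FHOD1 (0.92 in REH, 0.33 in Raji), ZFP36L1 (0.69 and 0.44), CD22 (0.62 and 0.48) and FOS (0.50 and 1.51) were called higher in both lines, and ZNF70 (-0.85 and -0.59) lower in both. An interaction term in limma over the 12 libraries of both lines passed at 27 of 6447 regions (0.419%). Among the 43 higher regions 15 had a larger rise in Raji, EGR2 the largest by 1.42, and FHOD1 a smaller one. The 15 became 3 without the replicate block, 0 with maximum signal and 16, 2 and 0 without replicates 1, 2 and 3. These regions were chosen on the same Raji libraries, so the differences describe them. In NALM6, the other pre-B line, 3578 regions were measured and limma called 0 (101 at an unadjusted p under 0.05), with 8 of 15 higher and 3 of 8 lower regions above 0 against 50.3% of all. Replicate 1 of NALM6 was deposited with another scaling, and without it the calls of H3K4me3 in NALM6 at the same regions were 104 and 12 of 18 higher and 3 of 8 lower regions were above 0.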

How the data were processed

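H3K4me3 Cut&Tag was compared in 3 untreated and 3 bryostatin-treated Raji libraries. The authors trimmed reads with Trim Galore, aligned them to hg38 with Bowtie2, computed coverage in RPKM in 10 bp bins and called peaks in each library with SEACR. The deposited peaks carry the total and the maximum of that signal, already normalised by the authors to depth, and no counts. The authors compared reads with DESeq2, which these signal values do not allow. Depth was read from the step between the lowest distinct peak heights, 28 to 65 in each library, and all distinct heights of up to 500 reads came within 0.05 of a whole number of reads.

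Peaks of chromosomes 1 to 22, X and Y were merged where they overlapped by 1 bp. Total signal was summed per region and library, log2 transformed and set to a median of 0 in each library, over regions with a peak in all 6. These were tested with limma 3.58.1 (lmFit, eBayes with trend) in R 4.3.3 with the replicate number as a block, and a Benjamini-Hochberg threshold of 0.05. The pairing uses the replicate numbers of the sample labels. Same-numbered libraries deviated together, with correlations of 0.54, 0.48 and 0.53, against -0.45 to 0.19 between differently numbered ones. Each deviation is from the mean of its own group, so high values between same-numbered libraries go with lower ones elsewhere. The correlations come from the tested values, and what same-numbered libraries share was not tested. Genes are from GENCODE 44, a start within 1 kb puts a gene in a region, and a gene takes its strongest region. GenomicRanges 1.54.1 and matplotlib 3.10.9 were used. Promoter sequences are from RefSeq (GRCh38.p14), found for 6837 of 8213 leading genes.

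The members and lists were chosen with earlier results of these data known. The genes named were the 12 largest rises and 8 largest falls at starts, 3 of each with no start, up to 4 called members of each list (or the 2 with the smallest p), CD22, ICAM1, ICAM2 and the regions called in 1 group only, and some genes this rule names are not reported here. Other names were chosen with their values seen. REH and NALM6 were fitted with the replicate block and Raji H3K4me2 without it. IgG libraries were not analysed here, and 0 columns of the tables used were left out.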

Additional observations from a re-analysis of the deposited data

Results flagged for a closer look

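A difference in response between Raji and REH, tested as an interaction of line and treatment over 12 libraries in limma, drew attention to 17 changed regions. The regions were selected for their change in the same Raji libraries, so these differences are not independent of that choice. The response of each line comes from its own fit and the difference from the joint fit. The log2 response in Raji minus that in REH was 1.42 at EGR2 (1.82 in Raji, 0.38 in REH), 1.25 at ABR, 1.17 at GMFG, 1.08 at PHLDA1, 0.98 at HIVEP3 and 0.98 in the intron of CCDC200. It was 0.93 at UBASH3B, 0.85 at FOS (1.51 and 0.50), 0.85 at MAML3, 0.82 at CSRNP1 (0.45 and -0.37), 0.82 at the LTA, LTB and TNF region (0.37 and -0.45), 0.68 at LMO2 and 0.66 at HLA-E (0.77 and 0.11). GRK6 had 0.53 and ACTB 0.44. FHOD1 had a smaller rise in Raji (-0.59), and DEF8 fell in Raji and had 0.07 in REH (-0.99). The adjusted p-values ran from 0.0101 to 0.0377. The number of regions with such a difference among all tested was 27, and it was 5 without the replicate block, 0 with maximum signal, and 67, 2 and 0 without replicates 1, 2 and 3.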

How the results depend on the processing

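The 132 changed regions became 14 without the replicate block, 0 with maximum signal, 8 with mean signal per called base, 42 (41 higher, 1 lower) without centring, 229 (153 and 76) with quantile normalization, 29 among the stronger regions alone, 58 without the trend, 85 with equal peak numbers and 12 with signal within 1 kb of the start. Leaving out single libraries gave 157 to 687 and leaving out a replicate number in both groups 175 to 704. Higher regions were 72.7% of calls in the comparison as reported, 97.6% without centring and 44.8% without replicate 2. Without untreated replicate 1 and without the block, a setting added after seeing the data, 5 were called. Of the 132, 132, 108 and 92 were also called without replicates 1, 2 and 3. The fit with the replicate block for H3K4me2 in Raji also called 0 regions. The regions called in 1 group only, 5, became 31 with equal peak numbers and 6 to 41 with a library left out. The 26 called genes of the lists became 0 with maximum signal and 2 with mean signal. The 27 regions whose response differed between Raji and REH became 5 without the block, 0 with maximum signal and 0 to 67 with a replicate left out. H3K4me2 calls, 0, became 1 with maximum signal, 1 with whole peaks and 0 to 9 with a library left out. Calls of H3K4me3 in REH at the same regions, 16, became 78 with whole peaks and 14 to 279 with a replicate left out, and those of H3K4me3 in NALM6 at the same regions, 0, became 104 without replicate 1. Signs turned with maximum signal at EGR1 (-0.031), LTA and LTB (-0.029), HLA-DQA1 (-0.044), MCL1 (-0.011), PRKD2 (-0.14) and PRKCB (-0.10), at ICAM2 with mean signal (-0.14), within 1 kb of the start (-0.039) and without replicate 2 of either or both groups, with -0.0156 to 0.197 over all libraries left out, and at CDK4 without centring (0.00086). The cause was not tested. Of 49 named entries called, with LTA and LTB as 2 entries in 1 region, 9 passed without the block and 49 with quantile normalization. Over all alternatives, the values of called named genes kept direction and call 672 times, kept direction alone 304 times and turned 3 times of 979. Untreated replicate 1 has the most reads and the lowest total signal in its median region, and the part of depth in the calls was not tested.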

Other observations

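H3K27me3, the Polycomb mark, gave no stable background for these regions, because the untreated Raji libraries of that mark had 819, 24143 and 73265 peaks. They overlapped 4, 64 and 27 of the 96 higher regions, 0, 29 and 6 of the 36 lower ones and 0.243%, 88.9% and 7.40% of all tested regions.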
